A study of Drosophila melanogaster with 16 samples.

Results

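In heads of adult Drosophila melanogaster, 795 of 87508 exon entries were above 2 RPM (reads per 1000000 exon counts of a library) in all 4 total mRNA libraries of a sex and at or below 2 RPM in all 4 TRAP libraries of the same sex. They are the exons that a cutoff of 2 RPM places in whole-head mRNA alone. The 795 entries cover 771 distinct intervals of 558 genes. Males and females met the rule together in 102 entries, males alone in 311 (male only) and females alone in 382 (female only), so that the male rule held 413 entries and the female rule 484. The values that chose these exons are the RPM of the same libraries. Every difference of these exons between TRAP and total mRNA within the sex of the rule is therefore given as a description, without a test. Calls over whole gene lists, given further below, include these exons, whose low TRAP level the rule fixed.

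TRAP (translating ribosome affinity purification) recovers mRNA on ribosomes that carry a GFP-tagged subunit, RpL10A. The gene fruitless makes, from its P1 promoter, male-specific transcription factors of the sex determination pathway. In females the P1 transcripts carry an early stop codon. Neurons that use this promoter occur in males and females, and direct courtship in males and other reproductive behaviours in females. A head also holds photoreceptors, pigment cells, glia, fat body, muscle, epidermis and blood cells, whose ribosomes carry the tag only where they use the driver. In bulk libraries such as these, fewer cells of a type and less RNA per cell cannot be told apart.

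The 4 groups of 4 libraries held TRAP and total mRNA of males and TRAP and total mRNA of females, all from flies of 10 to 12 days after eclosion. All groups shared 1 genotype, w/(w or Y); UAS-Gal4/UAS-GFP::RpL10A; fru P1-Gal4/+, so that the driver is a Gal4 in fruitless and both fractions of a sample come from animals that express the tagged ribosome. The stock table of the study lists the UAS-Gal4 insertion as not functional. Each sample pooled many frozen, sex-sorted flies, and total mRNA was taken from the lysate that entered the pull-down. Libraries held between 15353672 and 25419045 exon counts, and 2 RPM stood for 30.7 to 50.8 counts. Spearman correlations between libraries of a group lay between 0.912 and 0.976 over 51764 exons. The label was checked on the exons of 19 neuronal genes detected in total mRNA. They were called higher in TRAP in 109 of 132 cases in males and 102 of 118 in females. Of all detected exons, 9467 of 28285 and 11099 of 27048 were called higher. The rule held 0 of the neuronal exons in either sex, which says little, since it held 1.46% and 1.79% of all detected exons. Rbp9, a neuronal gene outside this list, had an exon that met the female rule. Of 36 photoreceptor genes, 34 were detected in total mRNA of each sex. The study calls its TRAP replicates biological, and p-values measure only the spread between these libraries.

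The word "only" did not hold for the reads themselves. No exon had a count of 0 in any TRAP library of its sex, and the summed TRAP count over 4 libraries was at least 20 under the male rule and at least 32 under the female rule. The mean level under the male rule had a median of 1.25 RPM in TRAP (range 0.219 to 1.92), against 3.14 RPM in total mRNA (range 2.20 to 11.3). Under the female rule the medians were 1.24 RPM in TRAP (range 0.448 to 1.85) and 3.06 RPM in total mRNA (range 2.14 to 9.38). Total mRNA exceeded TRAP by a median of 2.59-fold in males and 2.55-fold in females, and by 4-fold or more in 52 of 413 and 41 of 484 exons.

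The rule picked weakly represented exons. Of the exons detected in male total mRNA (above 2 RPM in all 4 libraries), it held 12.3% of those with a mean of up to 3 RPM, 3.53% of those between 3 and 5 RPM, 0.492% of those between 5 and 10 RPM and 1 of 12864 above 10 RPM. In females the shares were 11.3%, 3.63%, 0.274% and 0 of 10813. Over all detected exons they came to 1.46% in males and 1.79% in females.

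The border of the rule fell between values that hardly differed. Just inside it in males were an exon of muscleblind (mbl, an RNA-binding splicing regulator) with a highest TRAP value of 1.998 RPM and a lowest total mRNA value of 2.29 RPM, and an exon of comm3, a commissureless family gene, with 1.998 and 2.04 RPM. Just outside were asRNA:CR45210 and an exon of wrapper, each with a lowest total mRNA value of 1.996 RPM. In females, exons of foxo, the transcription factor of insulin signalling, and Arc42 passed with a lowest total mRNA value of 2.01 RPM, and exons of Sfxn1-3 and CG18249 missed it with 1.99 RPM.

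The exons that met the rule in both sexes with the highest levels were those of CG43114, CG31704's antisense neighbour asRNA:CR43936, CG34423, hgo and CG3663. The first exon of CG43114 (chr2R:11310831-11310916, dm6, plus strand, 5' UTR and coding) had 0.756, 1.38, 0.808 and 0.833 RPM in male TRAP, against 10.7, 9.21, 6.11 and 6.80 RPM in male total mRNA. In females it had 0.827, 0.782, 0.492 and 0.762 RPM in TRAP, against 7.72, 5.31, 8.04 and 4.18 RPM in total mRNA. The rule itself keeps the fractions of such an exon apart in both sexes. The last exon of hgo (chr2L:11138349-11138565, plus strand), which encodes homogentisate 1,2-dioxygenase of tyrosine breakdown, had 1.62, 1.38, 1.06 and 1.76 RPM in male TRAP, against 9.25, 6.13, 6.88 and 5.47 RPM in male total mRNA, and averaged 1.07 ± 0.277 RPM in female TRAP and 4.69 ± 1.94 RPM in female total mRNA (SD, n = 4 each). The last exon of CG3663 (chr2R:24662055-24662409, plus strand) had 1.24 ± 0.0623 RPM in male TRAP and 5.76 ± 0.533 RPM in male total mRNA, and 1.12 ± 0.379 RPM in female TRAP and 5.27 ± 0.654 RPM in female total mRNA (SD, n = 4 each). The 3 intervals of asRNA:CR43936, a noncoding gene on the opposite strand of CG31704, share bases with that gene. The library kit did not mark strand, so reads in the shared bases cannot be told apart. The single-exon transcript of asRNA:CR43936 (chr2L:11840455-11840873) begins outside CG31704, which starts at 11840691. Its values (1.47 ± 0.345 RPM in male TRAP and 7.61 ± 1.498 RPM in male total mRNA) can therefore hold reads of both genes, in unknown parts.

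Among male-only exons, CG45045 (chr3R:17667577-17667825, plus strand, at an interval that the annotation used here does not list) had 1.03, 1.18, 1.57 and 1.71 RPM in male TRAP, against 14.9, 7.16, 7.80 and 15.3 RPM in male total mRNA. In females it had 1.88, 3.78, 1.15 and 1.09 RPM in TRAP, against 21.2, 22.0, 14.2 and 5.82 RPM in total mRNA, and a single TRAP library above 2 RPM kept it out of the female rule. The last exon of pyx (chr3L:217932-218160, minus strand, 3' UTR), a heat-gated TRP channel gene, missed the female rule through 2 TRAP libraries. It had 1.23 ± 0.456 RPM in male TRAP and 6.87 ± 2.30 RPM in male total mRNA, and 1.15, 2.28, 2.24 and 1.52 RPM in female TRAP, against 5.61, 6.80, 7.42 and 6.38 RPM in female total mRNA. It overlaps CG13877 and Kaz1-ORFB on the other strand. The last exon of CG34054 (chr2R:11409810-11410005, minus strand) had 1.65 ± 0.195 RPM in male TRAP and 7.53 ± 1.79 RPM in male total mRNA, and its female TRAP libraries at 1.33, 3.45, 2.79 and 1.31 RPM lay on both sides of the cutoff.

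Among female-only exons, the highest level was that of a single-exon transcript of CG31704 (chr2L:11840691-11841204). Its reads in the bases shared with asRNA:CR43936 cannot be told from those of that gene. It had 1.65 ± 0.126 RPM in female TRAP and 9.38 ± 1.78 RPM in female total mRNA, and 2.09 ± 0.729 RPM in male TRAP and 11.5 ± 1.08 RPM in male total mRNA (SD, n = 4 each). The first exon of emp (chr2R:24985645-24986070, minus strand, 5' UTR), which encodes a CD36-class scavenger receptor of epithelia, had 1.01, 1.82, 1.26 and 1.14 RPM in female TRAP, against 6.16, 6.64, 7.07 and 5.20 RPM in female total mRNA. In males it had 2.21, 2.12, 1.91 and 3.15 RPM in TRAP, against 11.3, 8.18, 7.26 and 7.51 RPM in total mRNA. The exon overlaps CG3829 on the other strand. An internal exon of Acbp2 (chr3L:7132649-7132677, plus strand), an acyl-CoA binding protein gene, had 1.15, 0.977, 1.31 and 0.980 RPM in female TRAP, against 11.9, 4.34, 6.50 and 3.52 RPM in female total mRNA. Male TRAP held 2.05, 2.05, 1.45 and 0.787 RPM, against 15.8, 10.3, 3.88 and 10.5 RPM in male total mRNA. In emp and Acbp2 male TRAP values above 2 RPM decided the class, and the male fractions, which the female rule did not use, were apart in both, as in 274 of all 484 exons of the female rule (56.6%).

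**Figure D1:**
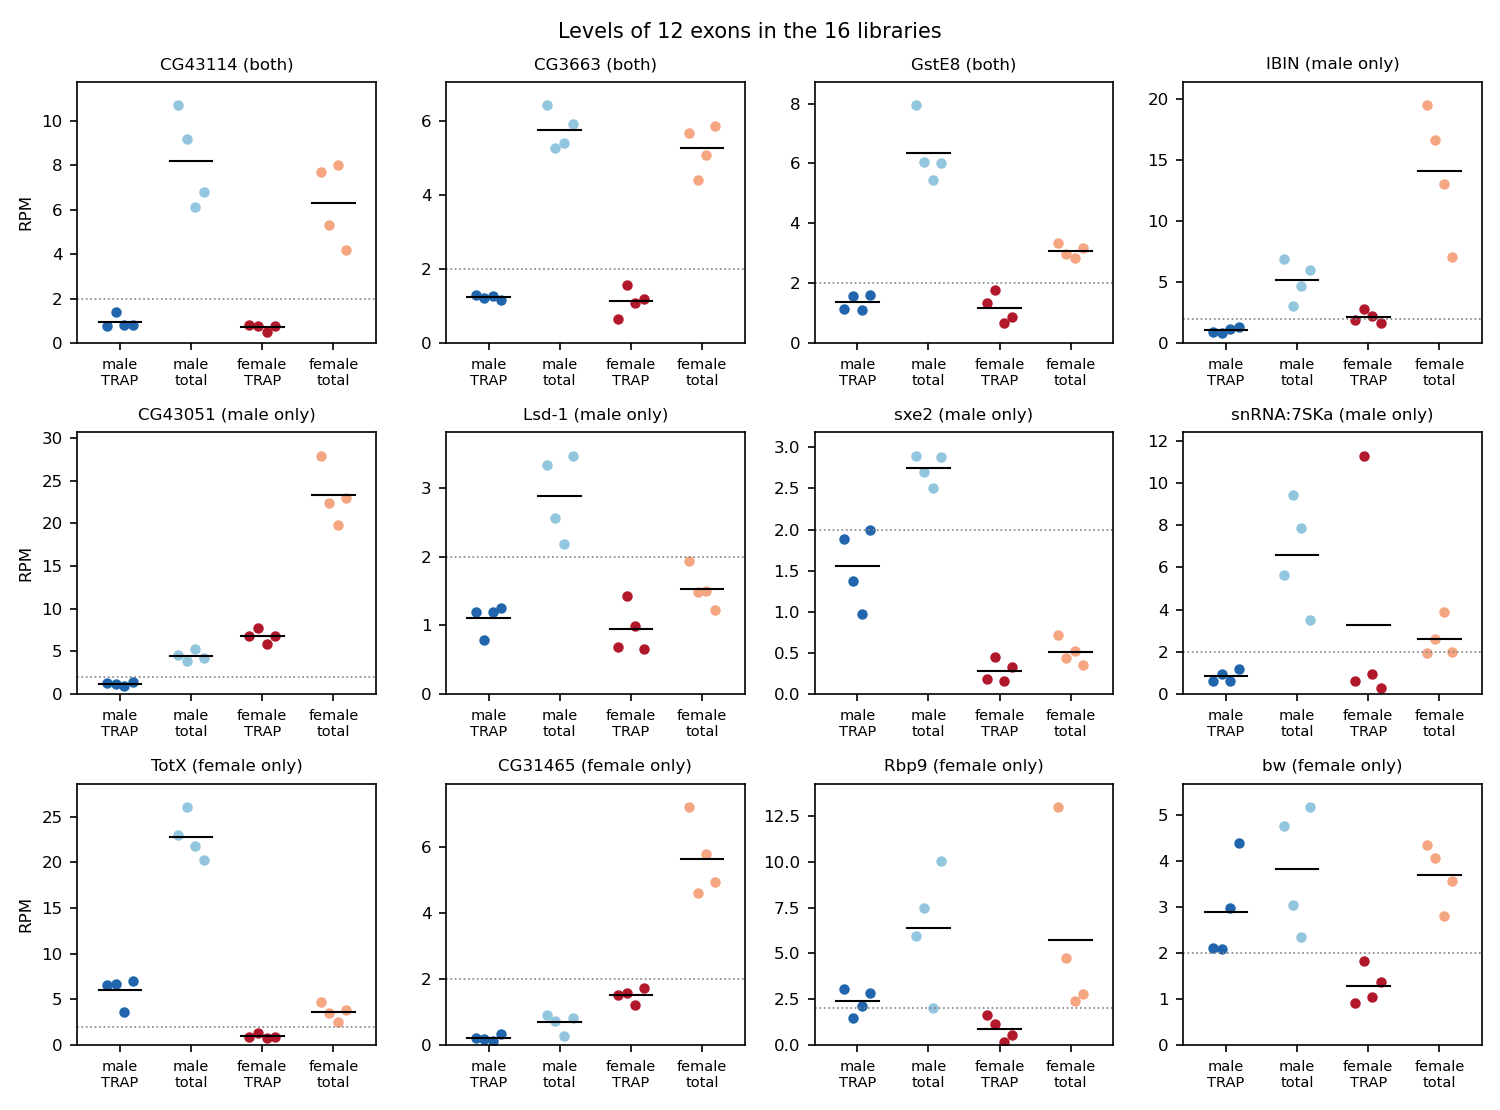
RPM of 12 exons by group, with males left of females and TRAP left of total mRNA (4 libraries each); each point is a library, the black bar is the mean, the dotted line is the cutoff of 2 RPM, each panel has its own scale from 0, and the class stands in the title. In the sex that did not meet the rule, TRAP means lie below total mRNA means in 8 of the 9 single-sex exons; the exception is snRNA:7SKa in females, where 1 TRAP library stood at 11.3 RPM.

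The rule chose exons in 1 sex at a time, which leaves the libraries of the other sex as a test. The question was whether an exon chosen in males was also lower in TRAP than in total mRNA in females, and the reverse. Of the 413 exons of the male rule, 407 (98.5%) were called lower in female TRAP (edgeR exact test, FDR under 0.2 over 51764 exons), against 32.9% of all exons tested. None was called higher, against 36% of all exons, and none was higher at an unadjusted p under 0.05 by the exact test, the quasi-likelihood test or DESeq2. The median log2 difference was -1.52, against 0.04 for all exons tested. Of the 484 exons of the female rule, 465 (96.1%) were called lower in male TRAP, against 26.4% of all exons, and none was called higher, against 27.6%, or was higher at an unadjusted p under 0.05 by any of the 3 tools. The median log2 difference was -1.31, against 0.03 for all exons tested. Each set includes the 102 exons that met the rule in both sexes.

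The shares were similar among weak exons alone. Among exons with a mean of at most 5 RPM in male total mRNA, 367 of 372 exons of the male rule (98.7%) were called lower in female TRAP, against 2065 of 6916 other detected exons (29.9%). In the reverse direction the counts were 444 of 463 exons of the female rule (95.9%) and 1744 of 8112 others (21.5%). With the exon filter that the study used, above 2 CPM in 60% of the libraries compared, only 135 and 184 of the exons remained, of which 135 and 183 were called lower.

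**Figure D2:**
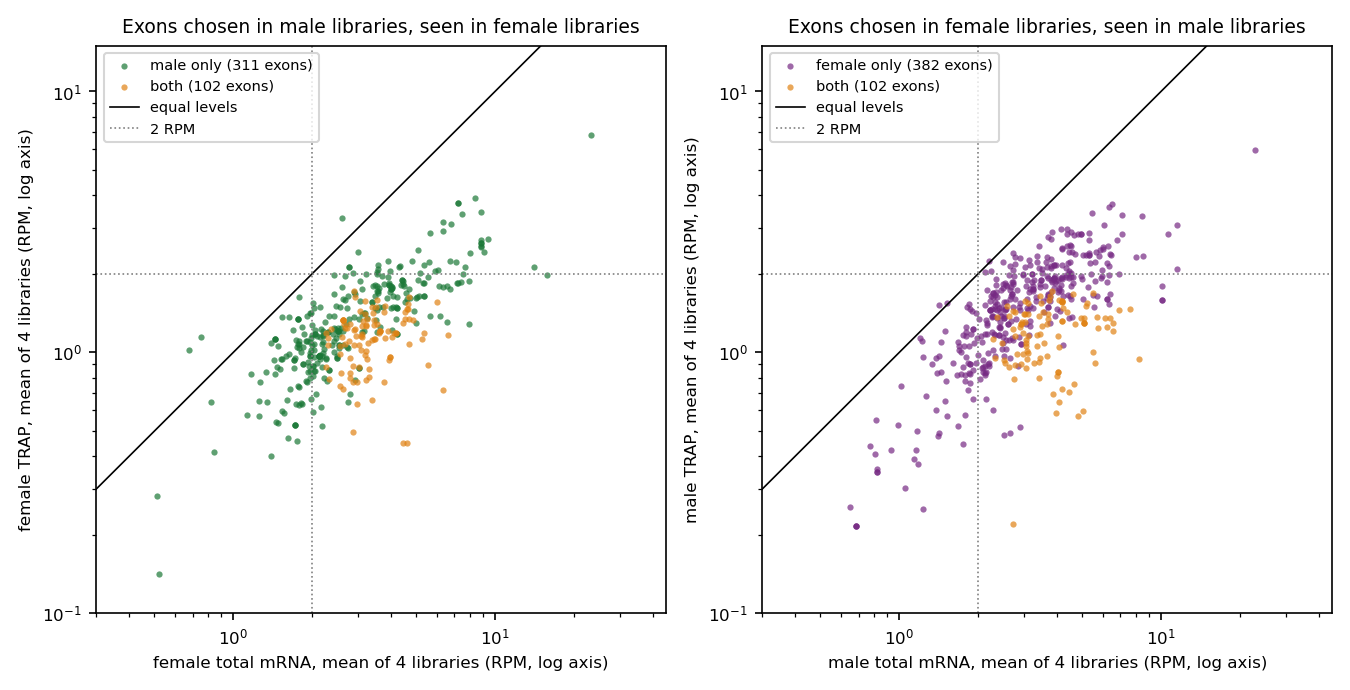
Mean RPM in TRAP (y axis) against mean RPM in total mRNA (x axis) of the sex that did not choose the exons, both on log axes, with 1 point per exon entry: 413 exons of the male rule in female libraries (left) and 484 exons of the female rule in male libraries (right). Points below the solid line are lower in TRAP, which holds for 410 and 481 exons, and the dotted lines mark 2 RPM.

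**Figure D3:**
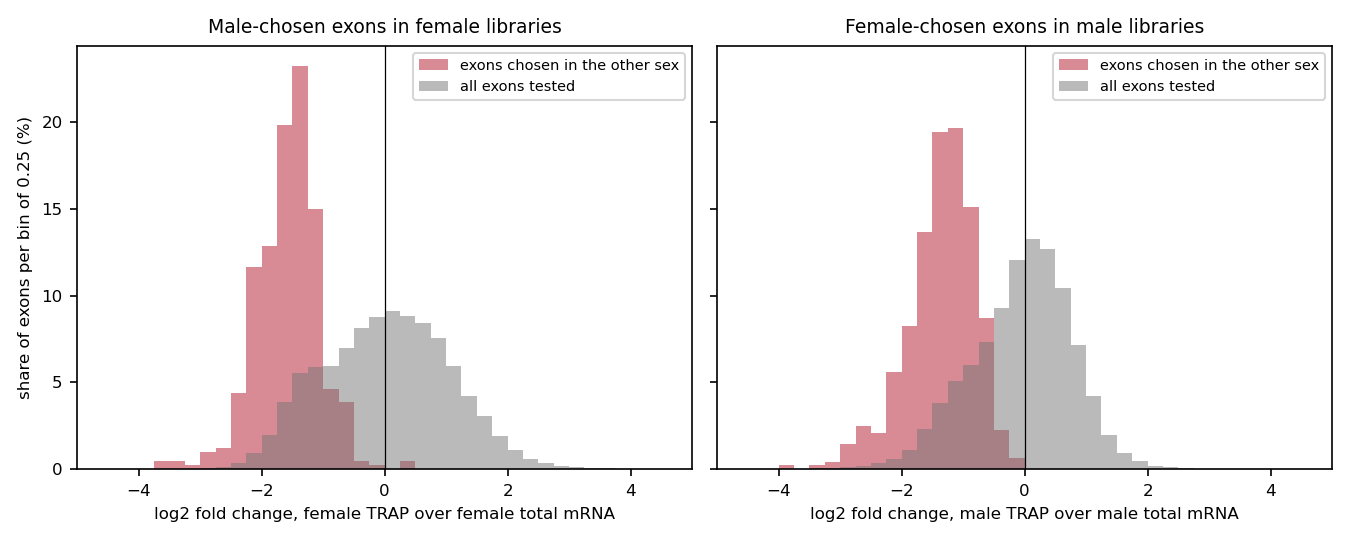
Distribution of the log2 fold change of TRAP over total mRNA in the sex that did not choose the exons, for the chosen exons (red, left in both panels) and for all 51764 exons tested (grey), as a share of each set per bin of 0.25. The chosen exons centre at -1.52 in female libraries and -1.31 in male libraries, and all exons near 0.

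The exceptions were few. In female libraries 6 exons of the male rule were not called, in asRNA:CR45162, CG15117, CG30384, CG9389, mbl and snRNA:7SKa, with log2 differences between -0.65 and 0.29, and only asRNA:CR45162 and CG9389 had a positive one (0.28 ± 0.37 and 0.29 ± 0.37, SE). These exons overlap on opposite strands, so that reads in the shared bases cannot be told apart and they are not separate exceptions. In male libraries 19 exons of the female rule were not called, all with negative log2 differences, from -0.63 in CG7384 to -0.11 in an exon of Ppn, papilin of the extracellular matrix, of which 2 exons are in this group. Exons of Hayan and psh, neighbouring genes for serine proteases upstream of Toll signalling, are also among them. The Hayan exon (chrX:18482309-18482489, minus strand) averaged 1.13 ± 0.728 RPM in male TRAP and 1.20 ± 0.552 RPM in male total mRNA, and 1.33 ± 0.363 RPM in female TRAP and 3.27 ± 0.488 RPM in female total mRNA (SD, n = 4 each). In males, which the female rule did not use, the fractions overlapped.

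The difference between the sexes in the TRAP effect gave no call. The interaction of sex and fraction (edgeR quasi-likelihood test, FDR under 0.2) was called for 0 of the 795 exons, against 0.0328% of all exons, which is 17 exons. At an unadjusted p under 0.05 there were 73 of 795 (9.18%, against 8.37% of all exons), of which 7 were male only, 64 female only and 2 in both. Since the rule used both contrasts, these counts describe the exons and test nothing. The median interaction (male minus female log2 difference) was -0.10 for male-only, 0.43 for female-only and 0.05 for shared exons, against -0.02 for all exons tested, and the female-only value was positive in 337 of 382 exons.

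An exon could miss the rule in the other sex through either fraction. Of the 413 exons of the male rule, 150 failed the female rule because total mRNA was not above 2 RPM in all 4 female libraries, 133 because at least 1 female TRAP library exceeded 2 RPM, and 28 on both counts. Of the 484 exons of the female rule, 144 failed in males on total mRNA, 176 on TRAP and 62 on both. TRAP exceeded 2 RPM in all 4 libraries of the other sex in only 8 exons of the male rule and 19 of the female rule.

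Some single-sex exons were more abundant in the other sex. The only exon of CG43051 (chr2L:12507939-12508504, plus strand) was male only, with 1.35, 1.18, 0.935 and 1.39 RPM in male TRAP, against 4.56, 3.86, 5.24 and 4.21 RPM in male total mRNA. Female TRAP held 6.84, 7.75, 5.90 and 6.81 RPM, against 27.9, 22.4, 19.8 and 23.01 RPM in female total mRNA. The exon was higher in every female library than in any male library of the same fraction, the log2 ratio of TRAP over total mRNA was -2.09 ± 0.27 (SE) in males and -2.05 ± 0.15 in females (adjusted p = 1.13e-28, edgeR exact test), and its male over female log2 ratio in total mRNA was -2.66 ± 0.17. TotX, a Turandot gene of the humoral stress response, was the reverse. Its only exon (chr3R:20904917-20905518, minus strand) was female only, with 0.827, 1.30, 0.820 and 0.926 RPM in female TRAP, against 4.76, 3.46, 2.55 and 3.83 RPM in female total mRNA, and had 6.53, 6.73, 3.61 and 7.04 RPM in male TRAP, against 23.1, 26.1, 21.8 and 20.2 RPM in male total mRNA. The log2 ratio of TRAP over total mRNA was -2.20 ± 0.25 in females and -2.13 ± 0.23 in males (adjusted p = 4.96e-16, edgeR exact test). In the sex that the rule did not use the fractions were apart in both genes, as in 313 of 413 exons of the male rule (75.8%) and 56.6% of the female rule.

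Other single-sex exons were close to the floor in the other sex. An internal exon of sxe2 (chr3R:16085707-16085808, plus strand), a lipase-like gene named sex-specific enzyme 2, had 1.89, 1.38, 0.978 and 1.99 RPM in male TRAP, against 2.89, 2.699, 2.51 and 2.88 RPM in male total mRNA. In females it averaged 0.283 ± 0.136 RPM in TRAP and 0.511 ± 0.154 RPM in total mRNA (SD, n = 4 each). The last exon of Ugt37B1, a UDP-glycosyltransferase gene, averaged 1.20 ± 0.427 RPM in male TRAP and 3.17 ± 0.802 RPM in male total mRNA, and 0.184, 0.326, 0.0547 and 0 RPM in female TRAP, against 0.590, 0.684, 0.659 and 0.153 RPM in female total mRNA. In the reverse direction, the last exon of CG31465 (chr3R:21883216-21883990, plus strand) had 1.52, 1.56, 1.20 and 1.74 RPM in female TRAP, against 7.21, 4.62, 5.80 and 4.95 RPM in female total mRNA, and averaged 0.216 ± 0.0814 RPM in male TRAP and 0.683 ± 0.282 RPM in male total mRNA. It overlaps fit, a female-biased gene of the head fat body, and asRNA:CR45046 on the other strand, and reads in shared bases cannot be told apart. CG4259 had a male over female log2 ratio of -2.71 ± 0.34 (SE) in total mRNA, beside -3.30 ± 0.27 for CG31465, 2.27 ± 0.35 for Ugt37B1 and 2.12 ± 0.27 for sxe2.

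Over all 795 exons, total mRNA was called higher in males than in females in 53 exons (6.67%), against 6.61% of all exons tested, and lower in 225 (28.3%), against 8.76% (edgeR exact test, FDR under 0.2). Lower calls were 74 of 311 male-only, 135 of 382 female-only and 16 of 102 shared exons. The rule used these libraries, so nothing is read from the counts. They also depended on the scaling. With library totals in place of TMM factors the median of all exons tested moved to 0.33, against 0.04 with TMM, and the calls turned to 188 higher and 133 lower. At an FDR under 0.05, 162 exons were called, and 184 without female total mRNA replicate 4, against 278.

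Single libraries set the size of the classes. Of the 475 intervals of the female rule, 207 (43.6%) exceeded 2 RPM in male TRAP replicate 5, against 101, 65 and 33 in replicates 1, 2 and 4. Of the 397 intervals of the male rule, 133 (33.5%) did so in female TRAP replicate 3, the library with the lowest total count, against 27, 52 and 34 in replicates 2, 4 and 5. Without male TRAP replicate 5, 770 exons met the male rule, against 413, and without female TRAP replicate 3, 957 exons met the female rule, against 484. Without male total mRNA replicate 1 or 3, 628 or 623 exons met the male rule. On TMM-scaled CPM in place of RPM the male rule held 564 and the female rule 1094 exons, and 90.2% of the 795 exons stayed in the set. TMM factors were 0.755 to 0.946 in female total mRNA, against 0.848 to 1.15 in male total mRNA.

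The classes lay in different parts of their transcripts. First exons made up 13.4% of male-only, 25.1% of female-only and 10.8% of shared exons, against 13.2% of exons detected at a mean of at most 5 RPM in either sex. Last exons made up 34.5%, 21.1% and 48.0%, against 22.8% in males and 24.4% in females at that level. Genes with an only exon gave 6.51%, 4.49% and 9.80%, against 2.61% and 2.87%. Internal exons were the largest place among the single-sex classes, with 45.6% and 49.3%, and were below the 61.3% and 59.5% of the comparison exons. These shares are descriptions without a test, since exons of a gene share their reads.

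The libraries were selected by poly(A) tail, and the distance of an exon to the 3' end of the transcript followed the same order, whose part in the result was not tested. Its median was 287 bases for male-only, 944 for female-only and 0 for shared exons, against 755 bases in males and 773 in females for exons of at most 5 RPM. Exons of 5' UTR without coding sequence were 1.95% of male-only, 8.18% of female-only and 0.98% of shared exons, against 4.24% and 4.25%. Exons that hold 3' UTR were 40.7%, 25.6% and 54.9%, against 29.3% in males and 31.3% in females. In the sex that did not choose them, the exons were called lower in TRAP at each distance. For the male rule this was 182 of 185 at the 3' end, 151 of 153 within 1000 bases and 70 of 71 beyond, against 28.9%, 34.4% and 34.6% of all exons tested at these distances. For the female rule it was 156 of 156, 124 of 127 and 182 of 198, against 29.9%, 30.9% and 21.3%. The median log2 difference of the female rule in male libraries was -1.65 at the 3' end and -0.997 beyond 1000 bases, against 0.16 and -0.02 for all exons tested at these distances.

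**Figure D4:**
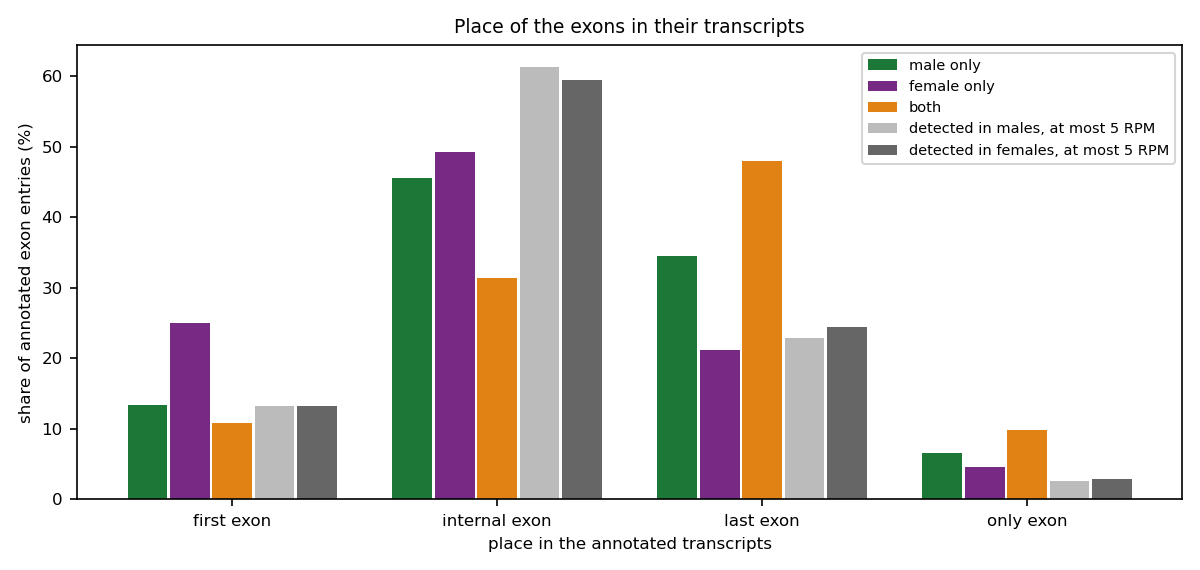
Share of annotated exon entries (y axis, percent) that are the first, an internal, the last or the only exon of their transcripts, for male-only, female-only and shared exons and for all exons detected in male or female total mRNA at a mean of at most 5 RPM. First exons are 25.1% of female-only exons and last exons 48.0% of shared exons, each above the comparison bars.

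Median lengths were 332, 322.5 and 353 bases for male-only, female-only and shared exons, against 342 and 388 bases for exons of at most 5 RPM in males and females. Noncoding exons were 4.89%, 2.90% and 7.84%, against 1.71% and 1.66%. The X chromosome held 14.5%, 12.8% and 8.82% of the exons, against 17.9% and 19.0%. An exon of another gene lay on the opposite strand in 10.3%, 10.7% and 16.7%, against 11.3% and 11.6%.

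For many genes the rule took the whole detected transcript, and for others 1 weak exon. In males 138 of 310 genes (44.5%) had no detected interval outside the rule, 107 of them with a single detected interval, and 37.1% had another interval above 2 RPM in all 4 TRAP libraries. In females 101 of 350 genes (28.9%) were of the first kind and 56.9% of the second. Within genes that also had an exon above 2 RPM in TRAP, the exon under the rule was farther from the 3' end in 87 of 113 genes in males (77.0%) and 168 of 198 in females (84.8%). It was nearer in 24 and 23 genes. No such share was computed for weak exons outside the rule, so whether the order is particular to these exons was not tested.

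Rbp9, a neuronal RNA-binding protein of the Elav family, was such a gene. Its first exon (chr2L:2959147-2959520, plus strand, 5' UTR) was female only, with 1.65, 1.17, 0.164 and 0.544 RPM in female TRAP, against 13.0, 4.75, 2.42 and 2.81 RPM in female total mRNA. In males it had 3.08, 1.49, 2.13 and 2.82 RPM in TRAP, against 5.95, 7.50, 2.02 and 10.05 RPM in total mRNA, and there the fractions overlapped. The last exon with the long 3' UTR averaged 292 RPM in female TRAP and 293 RPM in female total mRNA, and the last exon with the short 3' UTR, whose bases lie within the long one, 113 and 254 RPM. The coding exons between them were also lower in female TRAP. A coding exon averaged 7.52 RPM in female TRAP and 27.4 RPM in female total mRNA, and another 9.60 and 30.4 RPM. Their log2 differences were -2.16 and -1.96, against -2.95 at the first exon, which the rule had chosen for a low TRAP level. Whether these differences are unlike was not tested. Cpr, the NADPH reductase that serves all microsomal cytochrome P450 enzymes, had its first exon of 5' UTR among the female-only exons (1.62 ± 0.287 RPM in female TRAP and 3.81 ± 1.17 RPM in female total mRNA, SD, n = 4 each), while its last exon averaged 23.6 and 34.1 RPM. Lsd-1, perilipin 1 of lipid droplets, had 2 overlapping first exons in the male-only class at 1.104 ± 0.213 RPM in male TRAP and 2.89 ± 0.614 RPM in male total mRNA, and 13.4 and 38.1 RPM at its last exon. At the 3' end the TRAP mean was below the total mRNA mean in Cpr and Lsd-1 and close to it for the long last exon of Rbp9 in females.

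Genes with 4 or 5 intervals in the set included CG13004, CG31102, yuri and Pvr, the PDGF and VEGF receptor homologue. In males 4 of the 5 detected intervals of CG13004 met the rule. Of these 4, the last exon lies within the interval that missed the rule. The others of CG13004 share an end and hold the same reads, with means of 1.12 RPM in male TRAP and 2.74 RPM in male total mRNA. Its last exon (chrX:16827117-16827605, minus strand) was male only, with 1.51, 1.02, 0.638 and 1.34 RPM in male TRAP, against 3.10, 3.04, 3.06 and 3.75 RPM in male total mRNA. In females it had 0.643, 1.56, 0.656 and 1.14 RPM in TRAP, against 2.61, 3.22, 1.76 and 2.14 RPM in total mRNA (log2 difference -1.59 ± 0.31, SE, adjusted p = 7.69e-06, edgeR exact test). Pvr, by contrast, had 4 other intervals above 2 RPM in all male TRAP libraries, among them overlapping forms of its last exon. Of its 2 male-only internal exons the one with the higher level sat at the edge. It had 1.94, 1.97, 1.91 and 1.85 RPM in male TRAP, against 4.603, 2.96, 3.55 and 3.05 RPM in male total mRNA.

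The exons were set against 16 lists of cell types, pathways and families. Detoxification genes gave the largest number. Of 235 exons of cytochrome P450, glutathione S-transferase (GST) and UDP-glycosyltransferase (UGT) genes detected in male total mRNA, 22 (9.36%) met the male rule, and of 227 in females 19 (8.37%) met the female rule. These enzymes oxidise and conjugate toxins and internal substrates. Among all detected exons 1.46% met the male rule and 1.79% the female rule. The list as a whole was called lower in TRAP in 218 exons in males and 211 in females and higher in 2 and 9, the exons under the rule included, against 30.8% and 37.9% of all detected exons called lower, with median log2 differences of -1.29 and -1.35, against 0.07 and 0.05 for all detected exons. All 22 exons of the male rule were called lower in female TRAP, and all 19 of the female rule in male TRAP, close to the 98.5% and 96.1% over all exons of the rules. GstE8 met the rule in both sexes, with 1.13, 1.57, 1.11 and 1.62 RPM in male TRAP, against 7.94, 6.04, 5.46 and 6.01 RPM in male total mRNA, and 1.33, 1.76, 0.656 and 0.871 RPM in female TRAP, against 3.33, 2.98, 2.86 and 3.16 RPM in female total mRNA. GstD3 was male only, at 1.47 ± 0.466 RPM in male TRAP and 5.40 ± 0.503 RPM in male total mRNA (SD, n = 4 each), with a log2 difference of -1.81 ± 0.25 (SE) in females. GST and UGT genes form families with near-identical copies, and reads shared between copies may be missing from unique counts.

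Immune genes fell under the rule in 2 groups. The blood cell and basement membrane list gave 6 of 48 detected exons (12.5%) in males and 10 of 62 (16.1%) in females. Over all detected exons the shares were 1.46% and 1.79%. NimB5, NimC1, Sr-CI and lz met the male rule, and NimB3, NimB5, PPO1, lz and srp the female rule. NimC1 is a phagocytosis receptor of plasmatocytes, PPO1 a prophenoloxidase of crystal cells, srp a GATA factor of blood cells, and lz a Runx factor that also acts in the eye. NimC1 averaged 1.31 ± 0.443 RPM in male TRAP and 3.05 ± 0.752 RPM in male total mRNA, and 1.62 ± 0.571 RPM in female TRAP and 3.87 ± 0.428 RPM in female total mRNA (SD, n = 4 each). The first exon of NimB3 (chr2L:13967751-13967985, minus strand) had 0.643, 1.11, 1.59 and 0.544 RPM in female TRAP, against 3.16, 3.98, 5.71 and 4.39 RPM in female total mRNA, and averaged 0.373 ± 0.101 RPM in male TRAP and 1.18 ± 0.279 RPM in male total mRNA. The internal exon of PPO1 averaged 1.31 ± 0.486 RPM in female TRAP and 3.72 ± 0.265 RPM in female total mRNA, and its male fractions overlapped. All 6 and all 10 exons were called lower in the sex that did not choose them, as were 98.5% and 96.1% of all exons of the rules.

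Antimicrobial and immune-induced peptide genes gave 6 of 53 detected exons (11.3%) in males and 1 of 58 (1.72%) in females. Over all detected exons the shares were 1.46% and 1.79%, so the female share of the list was not above that level. Few exons of the list were weak. At a mean of at most 5 RPM the counts were 2 of 3 in males and 1 of 2 in females, against 5.10% and 5.40% of all detected exons at that level. All 53 and all 58 detected exons of the list were called lower in TRAP, against 30.8% and 37.9% of all detected exons. The 6 and 1 exons under the rule were low in TRAP by selection, and every exon of the list outside it was also called lower. With the exons under the rule included, median log2 differences were -2.52 and -2.66, the lowest of the 16 lists in either sex. IBIN, a short peptide gene induced by infection (chr2R:17671068-17671295, plus strand), had 0.918, 0.787, 1.15 and 1.30 RPM in male TRAP, against 6.88, 2.999, 4.64 and 6.01 RPM in male total mRNA. Female TRAP held 1.88, 2.80, 2.19 and 1.63 RPM, against 19.5, 16.6, 13.0 and 7.04 RPM in female total mRNA, with a log2 difference of -3.01 ± 0.27 (SE, adjusted p = 3.59e-23, edgeR exact test). Every female total mRNA library was above every male one, and 2 female TRAP libraries above 2 RPM kept IBIN out of the female rule. The first exon of BomBc3, a Bomanin of the Toll response, averaged 1.25 ± 0.289 RPM in male TRAP and 5.19 ± 1.27 RPM in male total mRNA, and 2.63 ± 0.778 RPM in female TRAP and 8.86 ± 1.85 RPM in female total mRNA. CecA1 and CecA2, cecropin genes that lie side by side and resemble each other, fell in the male-only and the female-only class.

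Eye genes were split into photoreceptor and pigment lists. Photoreceptor and phototransduction genes gave 1 of 278 detected exons in males and 9 of 269 (3.35%) in females, and eye pigment genes 5 of 88 (5.68%) and 3 of 80 (3.75%), against 1.46% and 1.79% of all detected exons. The pigment list moved both ways, with 36 exons called lower and 18 higher in male TRAP, and 36 lower and 27 higher in female TRAP. The lower calls were 40.9% and 45% of the list, against 30.8% and 37.9% of all detected exons. The female-only internal exon of chp, chaoptin of the photoreceptor surface (chr3R:31207621-31207849, minus strand), had 1.88, 1.63, 0.765 and 1.03 RPM in female TRAP, against 5.57, 3.58, 2.99 and 4.18 RPM in female total mRNA. In males it had 6.16, 2.44, 2.55 and 3.70 RPM in TRAP, against 10.8, 5.57, 3.33 and 6.43 RPM in total mRNA, with overlapping fractions and a log2 difference of -1.03 ± 0.31 (SE, adjusted p = 0.00547, edgeR exact test). Its gene's last exon averaged 26.4 RPM in female TRAP and 65.4 RPM in female total mRNA. Hdc, which makes the photoreceptor transmitter histamine, averaged 1.47 ± 0.343 RPM in female TRAP and 3.90 ± 1.36 RPM in female total mRNA at its female-only internal exon, and 3.07 ± 0.947 and 6.03 ± 2.01 RPM in the male fractions. Of the 2 pigment transporters that pair with white, st was male only and bw female only. The internal exon of st had 1.13, 1.38, 1.15 and 1.43 RPM in male TRAP, against 3.71, 2.699, 2.62 and 3.34 RPM in male total mRNA. The first exon of bw had 0.919, 1.82, 1.04 and 1.36 RPM in female TRAP, against 4.34, 4.06, 2.81 and 3.57 RPM in female total mRNA, and 2.11, 2.09, 2.98 and 4.40 RPM in male TRAP, against 4.77, 3.04, 2.35 and 5.17 RPM in male total mRNA, where the fractions overlapped.

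**Figure D5:**
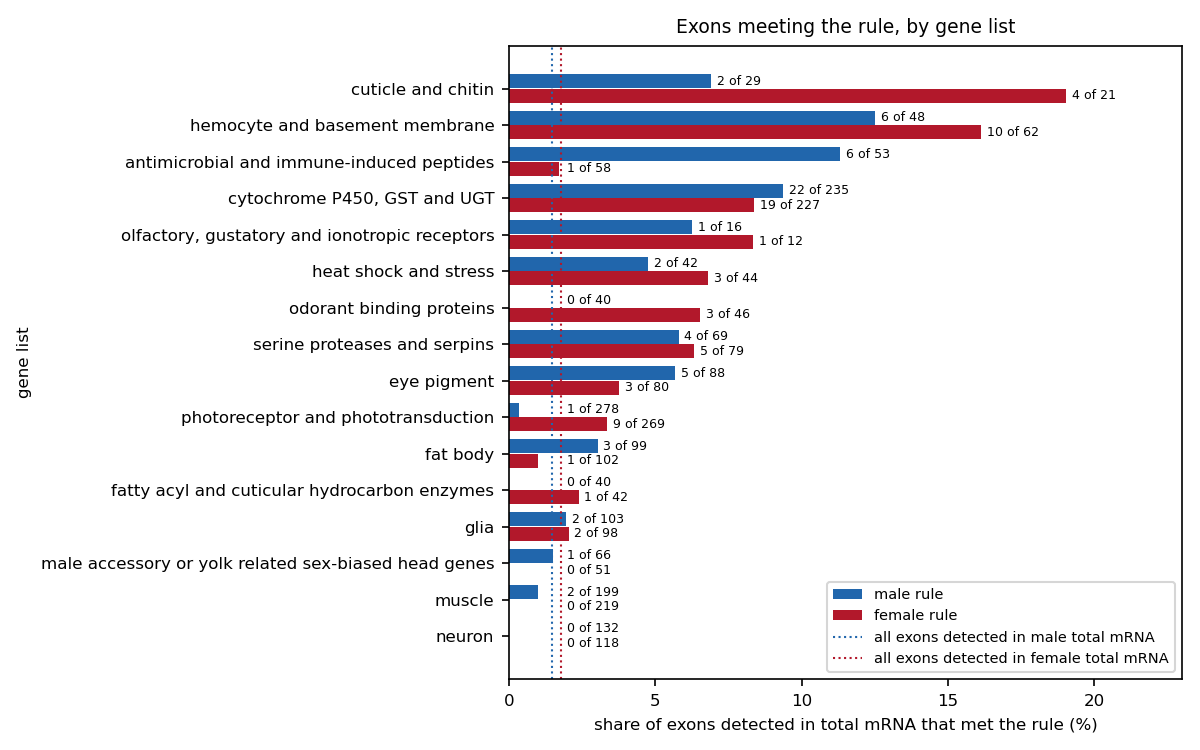
Share of the exons detected in total mRNA that met the rule (x axis, percent) for 16 gene lists, with the male rule in blue above the female rule in red and the counts beside each bar. Dotted lines mark the share among all detected exons, 1.46% in males and 1.79% in females; the cuticle, blood cell and detoxification lists are among those above them in both sexes, and the neuron list has 0 of 132 and 0 of 118.

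The remaining lists held 5 exons or fewer in each sex. Muscle genes gave 2 of 199 exons in males (Mlc1, a myosin light chain, and Zasp66 of the Z-disc) and 0 of 219 in females, although 142 and 173 exons of the list were called lower in TRAP. Fat body genes gave 3 of 99 and 1 of 102, in Lsd-1, Lip4 and AkhR, and all 102 detected exons of that list were called lower in female TRAP and 89 of 99 in male TRAP. Glial genes gave 2 of 103 and 2 of 98, in crok, wrapper and Tret1-1. The calls include the exons under the rule, and 30.8% and 37.9% of all detected exons were called lower in male and female TRAP. The shares under the rule were 1.01% and 0 for muscle, 3.03% and 0.98% for fat body and 1.94% and 2.04% for glia, against 1.46% and 1.79% of all detected exons. Most exons of the rule had a mean of at most 5 RPM. At that level the counts were 2 of 38 and 0 of 35 for muscle and 3 of 14 and 1 of 11 for fat body. For glia they were 2 of 24 and 2 of 27, against 5.10% and 5.40% of all detected exons at that level. The female fat body share rests on 1 exon.

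Of all detected exons 1.46% met the male rule and 1.79% the female rule. Cuticle genes gave 2 of 29 (6.90%) and 4 of 21 (19.0%), among them TwdlE and Cpr97Eb. Odorant binding protein genes gave 0 of 40 and 3 of 46 (6.52%), all in Obp19c. Receptor genes gave 1 of 16 exons (6.25%, Ir75a) in males and 1 of 12 (8.33%, Ir75b) in females, neighbouring ionotropic receptor genes. In that list 6 exons were called lower and 4 higher in male TRAP, and 3 lower and 7 higher in female TRAP. The lower calls were 37.5% and 25% of the receptor list, against 30.8% and 37.9% of all detected exons. The Ir75a exon averaged 1.29 ± 0.473 RPM in male TRAP and 2.64 ± 0.625 RPM in male total mRNA. The Ir75b exon averaged 1.11 ± 0.256 RPM in female TRAP and 3.78 ± 0.634 RPM in female total mRNA. Serine protease and serpin genes gave 4 of 69 (5.80%) and 5 of 79 (6.33%). Of the 5 exons under the female rule 3 were called lower in male TRAP, against 96.1% of all exons of that rule. Stress genes gave 2 of 42 exons (4.76%), all in Hsc70-1, in males and 3 of 44 (6.82%), in TotM and TotX, in females. The list of head genes that differ between the sexes gave 1 of 66 exons (1.52%, sxe2) in males and 0 of 51 in females. The list of fatty acyl and hydrocarbon enzymes gave 0 of 40 in males and 1 of 42 (2.38%, Cpr) in females.

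The noncoding exons included antisense RNAs and small nuclear RNA. The most abundant besides asRNA:CR43936 were snRNA:7SKa and asRNA:CR46129. The 7SK RNA binds and restrains the transcription elongation factor P-TEFb and stays in the nucleus. What part its place in the cell or the poly(A) selection of the libraries had in its values was not tested. Its exon (chr3R:7474553-7474996, minus strand) was male only, with 0.594, 0.944, 0.638 and 1.20 RPM in male TRAP, against 5.62, 9.43, 7.86 and 3.50 RPM in male total mRNA. In females it had 0.597, 11.3, 0.929 and 0.272 RPM in TRAP, against 1.94, 2.61, 3.91 and 1.99 RPM in total mRNA, so that replicate 3 alone stood above total mRNA. The exon was not called there (log2 difference -0.13 ± 0.71, SE, adjusted p = 0.904, edgeR exact test), and its call without that replicate is not given. asRNA:CR46129 lies opposite alpha-Est2, an esterase gene, and reads in the bases they share cannot be told apart. It had 0.540, 1.22, 0.808 and 1.85 RPM in male TRAP, against 7.25, 6.90, 6.99 and 4.96 RPM in male total mRNA, and 1.65, 2.80, 2.13 and 2.99 RPM in female TRAP, against 9.49, 6.43, 7.03 and 9.29 RPM in female total mRNA.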

How the data were processed

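RNA was sequenced from 16 libraries of fly heads, 4 for each sex and fraction. The authors aligned reads with STAR 2.7.2a to the dm6 genome, handled them with SAMtools 1.2, counted uniquely mapped reads per annotated exon with featureCounts and deposited raw counts. The deposited RPM values equal these counts scaled to 1000000 exon counts of a library, and the kit did not mark strand. Versions are from the submitters' processing notes, and the annotation release is not given in the sources used here. Gene names and the place of an exon came from an Ensembl annotation of the same assembly, matched by coordinates for 98.9% of entries.

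Members were found on RPM with a cutoff of 2. Counts were fitted in edgeR 4.0.16 (R 4.3.3) with TMM factors over exons with a mean of at least 0.5 CPM across all 16 libraries, which kept 51764 exons. Fractions and sexes were compared with the exact test, the test of the study, at a Benjamini-Hochberg FDR under 0.2. Standard errors and the interaction came from the quasi-likelihood fit. The study's own filter was an alternative, since it removes many members. The scripts were tested on simulated data. As alternatives, DESeq2 1.42.0 and the quasi-likelihood test were run, with other normalizations, filters and thresholds, the replicate number as a block, and each library left out.

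Exons were named if they had the highest levels of a class, the largest sex ratio in total mRNA, most intervals in a gene or a place in a list, and exons at the border or not called were named after their values were seen. Members and lists were chosen with earlier results of these data known. Female TRAP and female total mRNA of the same replicate number had correlations of the deviations of 0.372, 0.192, 0.457 and 0.295. The same number gave the highest value for female TRAP replicates 2, 4 and 5. Replicate 3 correlated more with total mRNA replicate 2 (0.305). In males TRAP replicate 2 reached 0.370 with total mRNA replicate 3, so whether the numbers pair the samples is not settled. A gene among those with most intervals is not reported here.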

Additional observations from a re-analysis of the deposited data

Results flagged for a closer look

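In 12 of 212 groups of 4 libraries examined for the named exons, 1 library lay far from the other 3, with a gap to the nearest that exceeded Dixon's critical value for 4 samples. Chance flags about 1 in 20 such groups. In male TRAP, these were replicate 1 for crok (1.30 RPM), replicate 2 for CG43114 (1.38 RPM) and Lsd-1 (0.787 RPM), replicate 4 for TotX (3.61 RPM) and replicate 5 for CG34054 (1.94 RPM) and Obp19c (3.15 RPM). In female TRAP it was replicate 3 for snRNA:7SKa, at 11.3 RPM. In male total mRNA it was replicate 4 for CG13004 (3.75 RPM) and asRNA:CR46129 (4.96 RPM). In female total mRNA it was replicate 2 for Mlc1 (9.32 RPM) and Zasp66 (10.2 RPM) and replicate 5 for BomBc3 (6.12 RPM).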

How the results depend on the processing

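Calls in the sex that did not choose the exons were lower in TRAP under every alternative run. Of the 413 exons of the male rule, 407 were called in female TRAP, and of the 484 of the female rule 465 in male TRAP. The study's filter left 135 and 183 calls. Other settings gave between 383 (library totals) and 411 calls, and between 421 (FDR under 0.05) and 476. Leaving out 1 library gave 401 to 409 and 431 to 474. In the quasi-likelihood fit with a replicate block, calls were 411 in females, against 408 without the block, and 476 against 467 in males. Male TRAP and total mRNA of the same number correlated at 0.079, 0.118 and 0.192. Male TRAP replicate 5 and male total mRNA replicate 3 had no partner, so the block took them out of the contrast. The 476 calls are close to the 474 without male TRAP replicate 5. Between male and female total mRNA, calls were 245, against 266 without the block, with male replicate 1 and female replicate 5 unpaired. Library totals in place of TMM moved the median of all exons between the fractions by about 0.2 to 0.3 on the log2 scale.

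Calls between male and female total mRNA were 162 at an FDR under 0.05 and 184 to 292 with 1 library left out. Interaction calls were 4 with library totals, 1 without a filter and 0 to 1 with 1 library left out, against 0. TMM-scaled CPM gave 857 female-only and 237 shared exons, and a cutoff of 1 RPM gave 52 shared exons. With 1 library left out, male-only exons ranged from 252 to 600, female-only from 314 to 796 and shared from 103 to 170. A cutoff of 1 or 4 RPM kept 7.30% or 13.5% of the 795 exons.

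A level of 2 RPM is 30.7 to 50.8 counts, and the part of depth in the classes was not tested.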
